A study of Homo sapiens with 2 samples.

Results

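Liver-type plasma protein and hepatic factor genes were followed in A549, an established line from a human lung adenocarcinoma, in cells that had received either a control siRNA or a siRNA against the c-Myc-inducible lncRNA MILIP (MAFG-AS1) 48 h earlier. The 45 members were taken by name: coagulation, complement, apolipoprotein, carrier and acute phase genes, a few of their inhibitors, and the factors HNF4A, FOXA1, FOXA2 and FOXA3 with A1CF and AADAC. The set was put together for its function but chosen by a rule written with the scaled read counts of these same 2 libraries, and their ratios, in view, so the differences are described and not tested. All 45 were found among the 60711 rows of the deposited table. RNA came from 1 experiment with 1 library per condition, both conditions were cultured and transfected by the same protocol, and only 1 siRNA against MILIP was used. With 1 library per condition no spread between replicates can be measured, so no difference below has a replicate check.

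Most plasma proteins are made by hepatocytes, where HNF1, HNF4, FOXA and C/EBP factors act together on their promoters. During inflammation the acute phase response, driven chiefly by interleukin 6 through the gp130 receptor, JAK kinases and STAT3, raises fibrinogen, complement and protease inhibitor genes. Lung adenocarcinoma cells such as A549 are known to make several of these products outside the liver.

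The values are read counts that the authors had scaled with 1 factor per library. Divided by that factor they came to 20300800 reads in the control and 19460956 reads after MILIP siRNA. No gene below 20 reads is listed with a value, so a value of 0 means fewer than 20 reads. MILIP itself stood at 29.5 in the control and at 3.22 after its siRNA, from 588 and 64 reads. Below, the control value always comes before the MILIP siRNA value. A log2 ratio compares the latter with the former after adding a pseudocount of 1 to each, which draws low genes toward 0. All genes whose mean over both libraries reached 1 entered the counts, 13521 in number. The limits given in brackets are 95% Clopper-Pearson limits on the log2 ratio without a pseudocount and cover counting error only. In bulk RNA, more cells that make a product and more RNA per cell cannot be told apart.

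Of the 45 members, 30 were listed in both libraries, 3 with MILIP siRNA only, and 12 at 0 in both. The mean of 31 members passed the filter, 1 of them (PROC) through the MILIP siRNA library alone. At least 1.5-fold higher after MILIP siRNA were 16 of these 31 members, against 11.1% of all genes that passed the filter. At least 1.5-fold lower was none of the 31, against 13.8% of all genes. At 2-fold the members held 13 higher and 0 lower, against 3.48% and 4.62% of all genes. The median log2 ratio was 0.62 over the 31 members and -0.03 over all genes. These shares describe the 2 libraries, and since the members were chosen with such values in view, nothing is read from the difference to all genes. Among the members nearest the threshold, TFPI lay just inside with a log2 ratio of 0.62 and CLU just outside with 0.58.

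**Figure D1:**
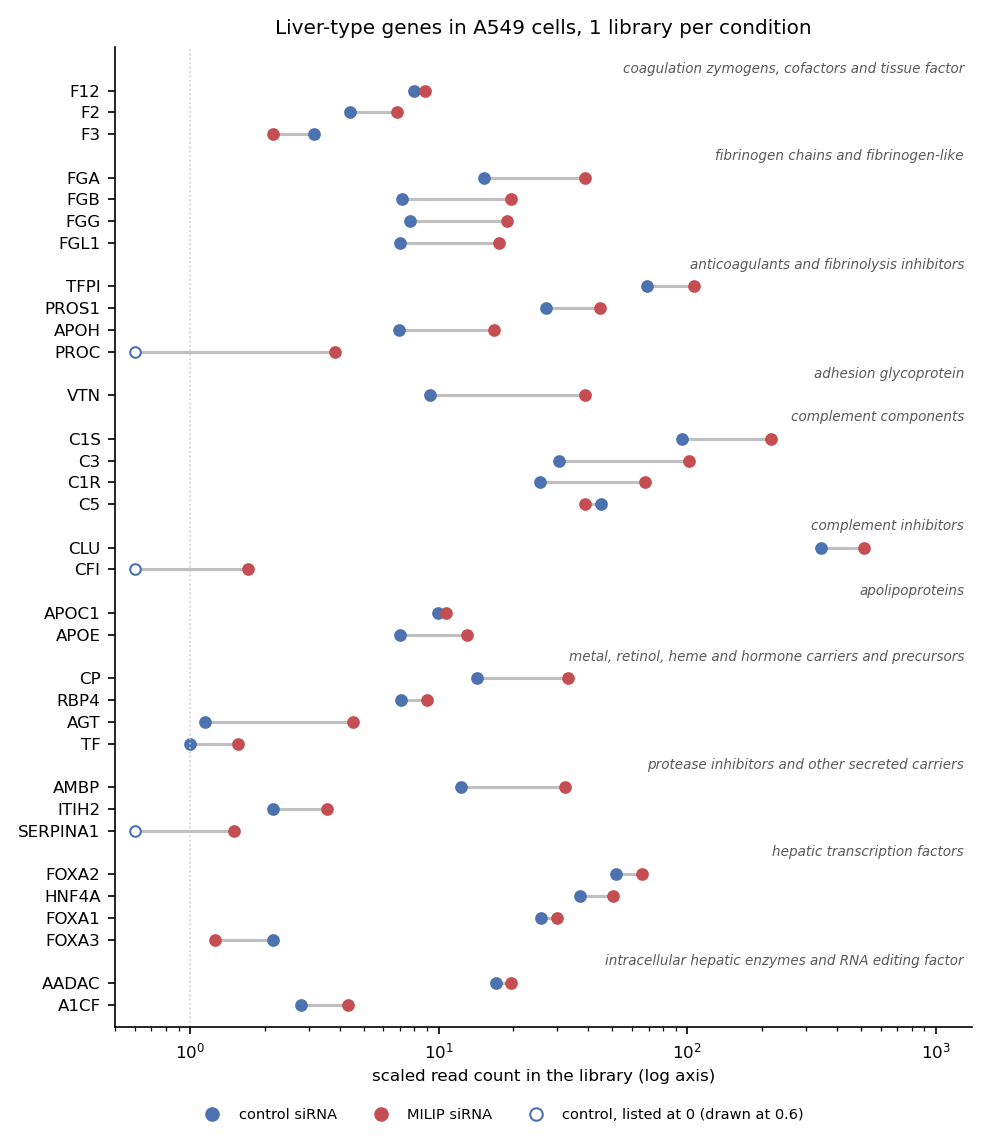
Scaled read counts of the 33 members listed in at least 1 library, by role, on a log axis; blue points are the control siRNA library, red points the MILIP siRNA library, open points stand for values of 0 and the dotted line marks 1. Red lies to the right of blue for the fibrinogen chains, VTN, C1R, C1S and C3, while the points of APOC1, F12 and AADAC lie close together.

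The higher members did not sit in 1 range of expression. With a mean of 1 to under 10, 2 of 10 members were at least 1.5-fold higher, beside 15.4% of all 3881 genes of that range. This count depends on the pseudocount: at 0.1 it was 6 of 10 members, with F2, TF, ITIH2 and A1CF added to AGT and PROC, beside 21.4% of the genes. With a mean of 10 to under 50 it was 11 of 16 members, beside 10.7% of 5155 genes. With a mean of at least 50 it was 3 of 5 members, beside 8.03% of 4485 genes. Of the 25 secreted or cell-surface members past the filter, 16 were at least 1.5-fold higher and the median log2 ratio was 1.16. Of the 6 intracellular members none was, and the median was 0.27. With so few members a count of 0 is near the 11.1% of all genes, and A1CF passed the threshold with a pseudocount of 0.1, so no difference between these groups is read from the counts.

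The fibrinogen chains were higher together. Fibrinogen is the soluble precursor of the fibrin clot and is assembled from the products of FGA, FGB and FGG. These genes lie next to each other on chromosome 4 (hg38), FGB from 154562956 to 154571086, FGA from 154583126 to 154590766 and FGG from 154604134 to 154612967, with FGB on the + strand and the others on the - strand. FGA stood at 15.2 and 39.0, from 304 and 775 reads, a log2 ratio of 1.30 (1.16 to 1.55). FGB stood at 7.11 and 19.6, from 142 and 389 reads, a log2 ratio of 1.34 (1.18 to 1.75). FGG stood at 7.71 and 18.8, from 154 and 374 reads, a log2 ratio of 1.18 (1.01 to 1.57). The proportions of the chains moved by less than counting error. FGA had 2.14 reads per FGB read (limits 1.75 to 2.63) with control siRNA and 1.99 (1.76 to 2.26) with MILIP siRNA. For FGG the reads per FGB read were 1.08 (0.858 to 1.37) and 0.961 (0.832 to 1.11). The flanking gene on the FGB side, PLRG1, a splicing factor, was within 1.5-fold, at 49.3 and 64.6, and LRAT on the FGG side was listed at 0 in both libraries. FGL1, a secreted protein of the fibrinogen domain family that binds the immune receptor LAG-3 and is encoded elsewhere, had values of 7.01 and 17.5 and a log2 ratio of 1.21 (1.04 to 1.62).

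Promoter windows, from 250 bases before the RefSeq start to 50 bases from the start on (GRCh38.p14), were matched by symbol for 33 of the 45 members. They were searched on both strands for a hexamer of the HNF1 site (GTTAAT), FOXA (TGTTTAC and TATTTAC), HNF4 (CAAAGTCCA) and C/EBP (TTGCNNAA) letters, and no match of one motif overlapped a match of another in the members. The windows of the 3 fibrinogen chains, APOH and VTN are shown because these members stood among the higher ones; capitals mark the matches. FGA is on chr4:154590693-154590992 (- strand), FGB on chr4:154562730-154563029 (+ strand), FGG on chr4:154612607-154612906 (- strand), APOH on chr17:66229366-66229665 (- strand) and VTN on chr17:28370258-28370557 (- strand).
FGA: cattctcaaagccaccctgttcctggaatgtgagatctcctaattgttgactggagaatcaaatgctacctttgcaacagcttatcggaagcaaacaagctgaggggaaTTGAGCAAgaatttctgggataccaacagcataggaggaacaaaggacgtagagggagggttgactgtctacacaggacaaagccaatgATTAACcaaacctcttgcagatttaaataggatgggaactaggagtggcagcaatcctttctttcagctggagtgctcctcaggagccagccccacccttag
FGB: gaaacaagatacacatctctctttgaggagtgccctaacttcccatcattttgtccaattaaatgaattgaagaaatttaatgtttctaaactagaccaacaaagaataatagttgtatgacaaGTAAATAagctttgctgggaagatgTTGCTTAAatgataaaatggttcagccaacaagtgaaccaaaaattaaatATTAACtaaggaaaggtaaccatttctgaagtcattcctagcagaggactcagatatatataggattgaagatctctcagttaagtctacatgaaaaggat
FGG: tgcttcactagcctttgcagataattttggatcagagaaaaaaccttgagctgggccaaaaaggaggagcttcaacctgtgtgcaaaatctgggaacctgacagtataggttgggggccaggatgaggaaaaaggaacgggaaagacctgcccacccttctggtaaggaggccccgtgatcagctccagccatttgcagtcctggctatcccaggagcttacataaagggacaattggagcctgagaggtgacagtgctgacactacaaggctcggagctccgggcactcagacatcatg
APOH: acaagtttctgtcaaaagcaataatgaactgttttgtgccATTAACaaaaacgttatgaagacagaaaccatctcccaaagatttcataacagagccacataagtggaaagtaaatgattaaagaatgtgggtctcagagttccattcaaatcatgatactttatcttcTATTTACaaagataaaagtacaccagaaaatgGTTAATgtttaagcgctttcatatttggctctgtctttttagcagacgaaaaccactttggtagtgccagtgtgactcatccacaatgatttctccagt
VTN: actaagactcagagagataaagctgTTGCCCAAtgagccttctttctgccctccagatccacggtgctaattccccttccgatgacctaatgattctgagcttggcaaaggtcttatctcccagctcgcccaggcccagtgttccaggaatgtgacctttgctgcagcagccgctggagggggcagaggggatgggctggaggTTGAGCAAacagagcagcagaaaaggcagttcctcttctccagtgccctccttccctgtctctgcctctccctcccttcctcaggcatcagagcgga

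The HNF1 hexamer fell at nearly the same place in FGA and FGB, from position -52 to -47 in FGA and from -51 to -46 in FGB, counted from the start at 0. A C/EBP match lay at -141 to -134 in FGA and at -101 to -94 in FGB, where a FOXA match stood at -126 to -120. FGG held none of these letters in its window although its log2 ratio was close to those of the other chains. APOH held the hexamer at -210 to -205 and at -49 to -44, with a FOXA match between them at -81 to -75. VTN held C/EBP matches at -225 to -218 and at -47 to -40. The hexamer was in 4 of the 12 windows of members at least 1.5-fold higher, in 1 of the 12 windows of the other members past the filter and in 6.88% of all 35116 windows. The C/EBP letters were in 4 of 12 and 0 of 12 of these windows, and in 10.5% of all windows. The FOXA letters TATTTAC were in 2 and 1 of them and in 2.67% of all windows, TGTTTAC in 1 and 0 and in 3.42%, and the HNF4 letters in none of the 24 and in 0.384%. A match is a description of the letters, and the counts are too small to rank the motifs.

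Of the clotting factor genes 0 of 3 past the filter were at least 1.5-fold higher, beside the 11.1% of all genes. Of the anticoagulant and fibrinolysis inhibitor genes, APOH counted among them, it was 4 of 4. PROC is 1 of these 4 only because its MILIP siRNA value carried it past the filter. From counts this small, with F2 close to the threshold, no contrast between the groups is read. F2, which encodes prothrombin, had values of 4.41 and 6.84 and a log2 ratio of 0.54 (0.24 to 1.04). F12, the contact activation factor, had 7.96 and 8.85, a log2 ratio of 0.14 (-0.17 to 0.47). F3, the tissue factor that starts coagulation on cell surfaces, had 3.16 and 2.16, from 63 and 43 reads, with limits of -1.14 to 0.04. The limits of F12 and F3 included 0. F2 was under 1.5-fold only through the pseudocount of 1: its ratio without one was 1.55-fold, against 1.54-fold for TFPI below, and its log2 ratio was 0.62 with a pseudocount of 0.1. F5, the cofactor of factor Xa, was listed at 0 in both libraries. PROC, which encodes the anticoagulant zymogen protein C, was listed at 0 in the control and at 3.82 after MILIP siRNA, from 76 reads. Against the lowest value that the control library lists, PROC was at least 3.81-fold higher. PROS1, its cofactor protein S, had values of 27.1 and 44.6, from 542 and 887 reads, a log2 ratio of 0.70 (0.56 to 0.87). TFPI, the inhibitor of the tissue factor pathway, had 68.8 and 106, a log2 ratio of 0.62 (0.53 to 0.73). APOH, a phospholipid-binding plasma glycoprotein, had 6.91 and 16.7, from 138 and 332 reads, a log2 ratio of 1.16 (0.98 to 1.57). For PROS1 and TFPI the lower limit lay under 1.5-fold, while for APOH the whole range lay above it. SERPINC1 (antithrombin), SERPIND1 (heparin cofactor II) and CPB2, a carboxypeptidase that slows fibrinolysis, were listed at 0 in both libraries.

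VTN showed the largest ratio of the members listed in both libraries. Vitronectin is an adhesion glycoprotein of plasma and matrix that binds integrins and the plasminogen activator inhibitor. Its gene lies on chromosome 17 from 28367276 to 28373091 (- strand) and stood at 9.22 and 38.8, from 184 and 772 reads, a log2 ratio of 1.96 (1.84 to 2.31). Per kilobase of exon this was 3.80 and 16.0, which moved VTN from place 16 to place 4 among the members. Exons of another gene on the same strand cover 13.6% of the exon bases of VTN, and reads there may not have been counted for it. The nearest coding genes by start were within 1.5-fold or lower: SARM1, whose span takes in VTN, had values of 6.41 and 7.39, and SLC46A1 17.5 and 9.45.

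Of the complement components C1R, C1S and C3 were higher and C5 was not. C1R and C1S, the proteases of the first component of the classical pathway, stood at 25.5 and 67.5 for C1R, a log2 ratio of 1.37 (1.26 to 1.56). C1S stood at 95.7 and 218, from 1911 and 4333 reads, a log2 ratio of 1.18 (1.11 to 1.26). Both lie on chromosome 12, C1S from 6988259 to 7071032 and C1R from 7080199 to 7092607. C1S had 3.75 reads per C1R read (3.40 to 4.15) in the control and 3.23 (3.03 to 3.43) after MILIP siRNA. These limits overlap only from 3.40 to 3.43, which does not show that the proportion stayed the same. C1RL, next to C1R, was also past 1.5-fold, at 18.7 and 28.7, and its exons share 11.4% of the exon bases of C1R. C3, on which all complement pathways converge, had values of 30.7 and 102, from 612 and 2025 reads, a log2 ratio of 1.70 (1.60 to 1.86). C5, which starts the terminal pathway, had 45.0 and 38.8, a log2 ratio of -0.21 (-0.36 to -0.07). The ratio of C5 was 0.01 once the trend of ratios with transcript GC content was taken out. CFB, the alternative pathway protease, was listed at 0 in both libraries, and 45.5% of its exon bases overlap C2 and another gene.

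Among inhibitors of complement, CLU (clusterin, also a chaperone) was the most abundant member per kilobase. Its values were 345 and 517, a log2 ratio of 0.58 (0.54 to 0.63) that passed 1.5-fold, at 0.61 and 0.64, under the other 2 scalings, at 52.2 and 78.1 per kilobase of exon. CFI, the protease that cleaves C3b, was listed at 0 in the control and at 1.71 after MILIP siRNA, from 34 reads, at least 1.71-fold higher. Its mean was under 1 and it did not pass the filter. C4BPB and SERPING1, the C1 inhibitor, were listed at 0 in both libraries, so that C1R and C1S were seen without a listed value of their main plasma inhibitor.

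**Figure D2:**
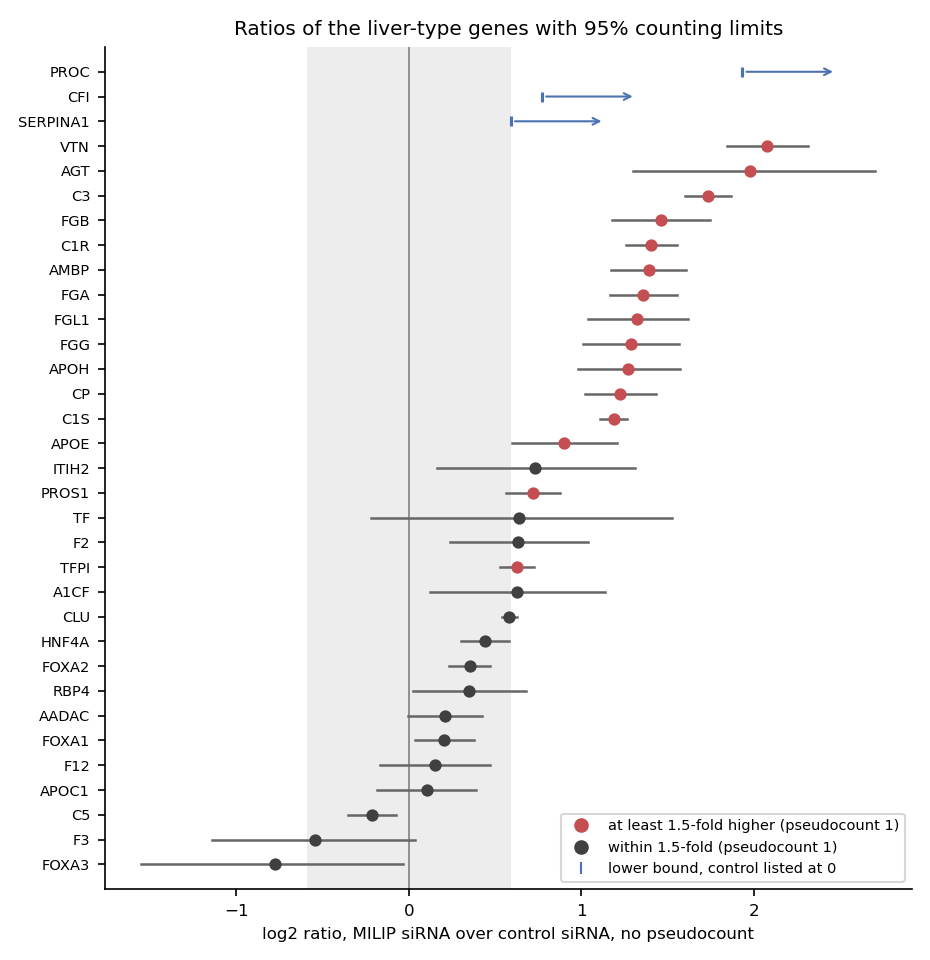
Log2 ratio without a pseudocount (x axis) of the 30 members listed in both libraries, with 95% counting limits as bars and the grey band marking 1.5-fold; arrows start at the lower bound of the 3 members listed at 0 with control siRNA. VTN, AGT, C3 and the fibrinogen chains lie to the right of the band with their whole limits, while the limits of F3, F12, APOC1, AADAC and TF cross 0.

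Apolipoprotein genes differed from each other at 1 locus. APOE and APOC1, which encode lipid-carrying proteins, are neighbours on chromosome 19, APOE from 44905754 to 44909393 and APOC1 from 44914247 to 44919349. APOE had values of 7.01 and 13.1, from 140 and 260 reads, a log2 ratio of 0.81 (0.60 to 1.21). APOC1 had 9.97 and 10.7, a log2 ratio of 0.09 (-0.18 to 0.39). APOE had 0.704 reads per APOC1 read (0.563 to 0.878) with control siRNA and 1.22 (1.01 to 1.47) with MILIP siRNA, and these limits do not overlap. A gene on the same strand covers 43.2% of the exon bases of APOC1 and 0.867% of those of APOE. The APOE ratio fell under 1.5-fold, to 0.57, with the GC trend taken out. APOB and APOA1, the main proteins of low and high density lipoproteins, were listed at 0 in both libraries.

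Of the 5 carrier and precursor genes 4 passed the filter. CP and AGT, 2 of these 4, were at least 1.5-fold higher, beside 11.1% of all genes. CP, the copper-carrying ferroxidase ceruloplasmin, had values of 14.2 and 33.2, from 284 and 661 reads, a log2 ratio of 1.17 (1.02 to 1.43). Exons of HPS3 on the opposite strand cover 19.4% of the exon bases of CP. AGT, the precursor of angiotensin, had 1.15 and 4.53, from 23 and 90 reads, with limits of 1.30 to 2.70. The control value of AGT was 3 reads above the lowest that is listed. RBP4, the plasma carrier of retinol, had 7.06 and 9.0, a log2 ratio of 0.31 (0.02 to 0.68). TF, the iron carrier transferrin, had 1.00 and 1.56, from 20 and 31 reads, with limits of -0.22 to 1.53. HP, haptoglobin, was listed at 0 in both libraries. TF was under 1.5-fold only through the pseudocount of 1, with a log2 ratio of 0.59 at a pseudocount of 0.1, and its reads leave a range that includes 0.

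AMBP stood out among the remaining secreted members. It encodes the joint precursor of alpha-1-microglobulin and of bikunin, the light chain of the inter-alpha-trypsin inhibitor, and had values of 12.3 and 32.1, from 245 and 639 reads, a log2 ratio of 1.32 (1.17 to 1.61). ITIH2, a heavy chain that joins bikunin, had 2.15 and 3.57, from 43 and 71 reads, with limits of 0.16 to 1.31, and was past 1.5-fold only with a pseudocount of 0.1 (0.70), without one (0.73) or with the GC trend removed (0.61). SERPINA1 (alpha-1-antitrypsin) was listed at 0 and at 1.51, from 30 reads with MILIP siRNA, and was at least 1.51-fold higher, with a mean under the filter. SERPINA3 (antichymotrypsin) and AHSG (fetuin A), both abundant in plasma, were listed at 0 in both libraries.

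With the pseudocount of 1 the 4 hepatic transcription factors were within 1.5-fold, and FOXA3 was past it, in the lower direction, under other settings. HNF4A, a nuclear receptor central to hepatocyte identity, had values of 37.0 and 50.1, from 738 and 997 reads, a log2 ratio of 0.43 (0.30 to 0.58). FOXA2, a forkhead factor that opens chromatin in endoderm, had 51.7 and 66.1, a log2 ratio of 0.35 (0.24 to 0.47). FOXA1 had 25.9 and 29.9, a log2 ratio of 0.20 (0.03 to 0.38). FOXA3, the least expressed of the 3, had 2.15 and 1.26, from 43 and 25 reads, with limits of -1.55 to -0.03. Its log2 ratio was -0.48 with the pseudocount of 1, -0.73 with 0.1, -0.78 without one and -0.66 with the GC trend removed, the last 3 past 1.5-fold. Per kilobase of exon FOXA2 took place 2 among the members in the control and place 3 after MILIP siRNA, at levels of 19.9 and 25.4. FOXA2 had 1.99 reads per FOXA1 read (1.79 to 2.22) with control siRNA and 2.21 (2.0 to 2.44) with MILIP siRNA, limits that overlap. A1CF, the RNA-binding partner of the apolipoprotein B mRNA editing enzyme, had 2.80 and 4.32, from 56 and 86 reads, with limits of 0.12 to 1.14, and a log2 ratio of 0.48 that was 0.61 with a pseudocount of 0.1. AADAC, a lipase of the endoplasmic reticulum, had 17.0 and 19.6, with limits of -0.01 to 0.42.

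Neighbouring genes were read in the same way. For the 16 members at least 1.5-fold higher, the nearest protein-coding gene by start on each side gave 25 genes that are not members, 20 of them past the filter. Of these, 3 were at least 1.5-fold higher and 3 at least 1.5-fold lower, with a median log2 ratio of -0.16, beside 11.1% and 13.8% of all genes. The higher ones were C1RL, GPR108 beside C3 at 38.02 and 78.3, and ZNF618 beside AMBP at 27.4 and 46.1. The lower ones were SLC46A1, PRKCA beside APOH at 229 and 144, and MTUS1 beside FGL1 at 245 and 89.6. These counts are near the shares over all genes.

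**Figure D3:**
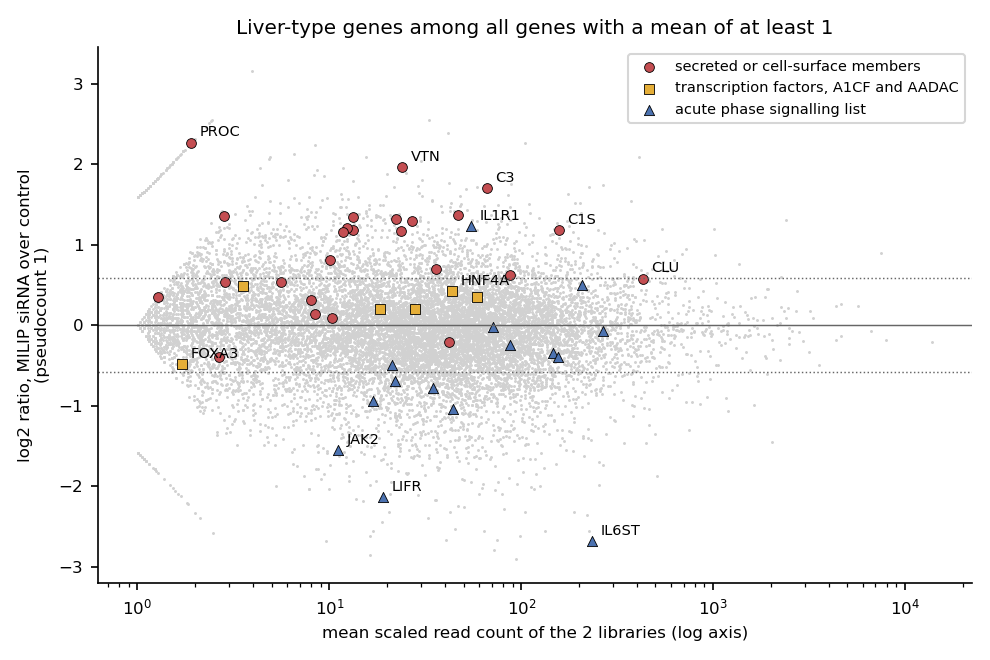
Log2 ratio with a pseudocount of 1 (y axis) against the mean scaled read count of the 2 libraries (x axis, log) for the 13521 genes past the filter in grey; red circles are secreted or cell-surface members, yellow squares intracellular members, blue triangles the acute phase signalling list, and dotted lines mark 1.5-fold. VTN and C3 lie near 2 on the y axis at middling expression, and IL6ST lies at -2.68.

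Liver-type genes outside the membership were read from lists drawn up from textbook roles. Earlier results of these data were known by then, so the lists give no independent check of the members. The 4 lists of other plasma protein and lipoprotein assembly genes held 86 genes. Of these, 27 carry no value, 35 were listed at 0 in both libraries and 19 passed the filter. At least 1.5-fold higher were 9 and lower 1 of these 19, beside the 11.1% and 13.8% of all genes, with a median log2 ratio of 0.50. In the complement list 3 of 5 were higher, among them CFD, the protease that cleaves factor B, at 20.1 and 40.9. C4BPA, which with C4BPB forms the C4b-binding protein, was also higher, at 1.35 and 4.63. In the coagulation list 3 of 6 were higher, TFPI2 at 156 and 246, ADAMTS13, which cleaves von Willebrand factor, at 2.30 and 4.47, and HABP2, a serine protease, listed at 0 and at 2.01. In the carrier list 2 of 4 were higher. SERPINA6, the cortisol carrier, was listed at 0 and at 3.47, and LCN2, an iron-siderophore carrier, stood at 1.25 and 3.57. HABP2 and SERPINA6 passed the filter through the MILIP siRNA library alone, so the filter fixed their calls as higher. In the apolipoprotein list APOL1 was higher, at 13.5 and 26.2, and ABCA1, the cholesterol exporter that loads apolipoprotein A-I, was lower, at 97.9 and 22.2, a log2 ratio of -2.09 (-2.30 to -1.99).

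Most genes that define hepatocytes were listed at 0 or carry no value. Of 10 hepatocyte markers, ALB, TTR, AFP, CYP3A4, TAT, SLC10A1, CYP2E1 and ARG1 were listed at 0 in both libraries, APOA2 carries no value, and ASGR1 stood at 1.35 and 3.22. The epithelial markers were present, with KRT8 at 2543 and 2875 and sums over the 6 markers of 3286 and 3717; KRT19, EPCAM and CDH1 were at least 1.5-fold higher. Of the 10 alveolar type II markers, NKX2-1, SFTPB, SFTPC, SFTPD and LAMP3 were listed at 0, 3 carry no value, NAPSA stood at 1.05 and 1.26 and ABCA3 at 68.3 and 93.2. All 5 endothelial and all 6 erythroid and platelet markers were listed at 0 in both libraries. In the fibroblast list COL1A1 was higher, at 10.1 and 40.1, THY1 stood at 4.51 and 4.22, and COL1A2, COL3A1, LUM and PDGFRB were listed at 0, with sums over the list of 14.6 and 44.3. Of the leukocyte markers only CD14 had a listed value, at 4.46 and 9.60. The hepatocyte, fibroblast, endothelial and leukocyte genes that define those cells were thus at 0 or without a value, apart from ASGR1, COL1A1, THY1 and CD14. Exons of other genes cover 85.8% of the exon bases of the leukocyte marker CD68, 34.0% of LYZ and 23.9% of CYP2E1. Reads there may not have been counted for these 3 genes, all listed at 0. The part of the epithelial, COL1A1 and CD14 differences in the members' values was not tested.

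In the list of acute phase signalling genes more were lower than higher. Of 18 genes, 15 passed the filter, and the median log2 ratio was -0.49. Of these, 7 were at least 1.5-fold lower and 1 was higher, beside 13.8% and 11.1% of all genes. IL6ST, which encodes gp130, the shared receptor chain of interleukin 6 type cytokines, had values of 405 and 62.2, from 8085 and 1238 reads, a log2 ratio of -2.68 (-2.79 to -2.62). LIFR, the partner of gp130 in the LIF receptor, had 31.7 and 6.44, a log2 ratio of -2.14 (-2.59 to -2.02). JAK2, a kinase bound to such receptors, had 17.1 and 5.18, a log2 ratio of -1.55 (-2.06 to -1.40). The other lower genes were IL1RAP, SOCS3, NFKB1 and PIAS3, with log2 ratios from -1.03 to -0.70. IL1R1, the interleukin 1 receptor, was the higher one, at 32.3 and 77.0, a log2 ratio of 1.23 (1.12 to 1.39). STAT3 had 172 and 244, a log2 ratio of 0.50, within 1.5-fold, and IL6, OSM and IL1B were listed at 0 in both libraries. IL6R, the interleukin 6 receptor itself, and OSMR, the oncostatin M receptor, were within 1.5-fold, with log2 ratios of -0.49 and -0.39. Of the receptor chains listed, IL6ST, LIFR and IL1RAP were thus lower and IL1R1 higher.

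Of 23 other hepatic transcription factors, 17 passed the filter, and the median log2 ratio was 0.23. Of these, 3 were at least 1.5-fold higher and none lower, beside 11.1% and 13.8% of all genes. With so few genes these counts are near those shares. CEBPD, a C/EBP factor of the acute phase, had values of 16.4 and 43.1, from 328 and 858 reads, a log2 ratio of 1.34 (1.21 to 1.58). NR1H3 (LXR alpha) had 14.6 and 23.4, and RXRA, the partner of many nuclear receptors, 92.8 and 144. CEBPB, the other main C/EBP factor of inflammation, had 139 and 207, a log2 ratio of 0.57. CEBPD was thus the one factor of this list past 2-fold.

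Receptors and surface regulators of the members' products showed no common direction. Of 25 such genes, 23 passed the filter, with a median log2 ratio of 0.06. Of these, 5 were higher and 2 lower, beside 11.1% and 13.8% of all genes. ITGAV, the integrin chain through which cells bind vitronectin, was lower, at 404 and 101, from 8063 and 2018 reads, a log2 ratio of -1.98 (-2.06 to -1.92). Its partner chains ITGB5, at 444 and 570, and ITGB3, at 3.56 and 4.98, were within 1.5-fold, and ITGB6 was higher, at 2.25 and 5.93. F2RL1, a protease-activated receptor, was lower, at 308 and 176. LRP1, a clearance receptor, was higher, at 66.1 and 105, and so were C5AR1, AGTR1 and FCGRT, with log2 ratios from 0.61 to 0.78. PROCR, the endothelial receptor of protein C, was within 1.5-fold, at 34.0 and 35.8. THBD, the cofactor with which thrombin activates protein C, was also within 1.5-fold, at 25.8 and 21.9. VTN and ITGAV, a product and its receptor chain, thus differed in opposite directions.

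The vitamin K cycle serves the gamma-carboxylation of prothrombin, protein C and protein S. For it 6 genes were listed, of which RCN2 is not an established part. None was higher and 2 were lower, beside 11.1% and 13.8% of all genes, counts too small to read. One of the lower genes was VKORC1L1, a vitamin K epoxide reductase, which had values of 153 and 57.6, a log2 ratio of -1.39 (-1.51 to -1.31). GGCX, the carboxylase itself, had 58.0 and 53.3, and VKORC1 3.01 and 2.72. Exons of other genes cover 74.5% of the exon bases of VKORC1, and reads there may not have been counted for it. None of these genes was past 1.5-fold in the direction of PROC and PROS1.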

How the data were processed

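RNA from A549 cells was sequenced with 1 library per condition, 48 h after transfection. The submitters' processing notes name TopHat2 2.0.12, HTSeq 0.6.1 and hg38; the annotation, strand use, counting mode, low-value cut and scaling are not given in the sources used here. The deposited columns, named as read counts, hold scaled signal values: the authors had multiplied the counts of each library by 1 factor (0.0501 and 0.0503 per read), and 100% of values above 0 were whole multiples within 0.001 reads. The 4 columns of the authors' own comparison (fold change, p, q and a call) were not used.

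Symbols were matched by Ensembl ID; positions, exon lengths, GC content and overlaps came from GENCODE release 29 (GRCh38). Reads in exons of overlapping genes may have been left out or shared. No test across genes was made. Members and lists were chosen with earlier results of these data known. The genes named are all members, MILIP, and of the other lists those past 1.5-fold, from a rule that also took the 3 highest and 3 lowest of each list, given here mostly by counts and medians. A few others (STAT3, CEBPB, PROCR, THBD, ITGB5, ITGB3, CPS1, CES2, genes listed at 0 and further markers) and the neighbours were named for their roles after values were seen. Alternatives were pseudocounts of 0.1 and 5, 2 other scalings, no filter, a mean of at least 5, a 2-fold threshold and removal of the GC trend in 50 bins. Ratios without a pseudocount and members without exon overlap were added after seeing the data. A few genes of the lists are not reported here by name. The calculations were tested on simulated data. Scripts ran in Python 3.11.15 with scipy 1.17.1 for the limits, pandas 2.3.3 and numpy 2.4.6 for tables, and matplotlib 3.10.9 for drawing.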

Additional observations from a re-analysis of the deposited data

How the results depend on the processing

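No paired analysis was possible because only 1 library stands for a condition, for which reason none could be left out either. The number of members at least 1.5-fold higher, 16, ran from 13 with the 2-fold threshold to 20 with a pseudocount of 0.1. Counting only the 16 members past the filter whose exons overlap no other annotated gene left 8, by construction fewer. The number of members at least 1.5-fold lower was 0, and 1 with a pseudocount of 0.1, with the GC trend removed and without a pseudocount, each time FOXA3. The members' median was 0.75 with a mean of at least 5, where fewer genes remain. Over all genes a pseudocount of 5 left 890 of 1507 higher, and 2-fold left 471 higher and 625 lower. Of 89 other liver-type genes past the filter, 22 were at least 1.5-fold higher, beside 11.1% of all genes. HABP2, SERPINA6 and SLCO1B1 were among the 22 through the MILIP siRNA library alone. The count was 13 with a pseudocount of 5, 12 with a mean of at least 5 and 9 at 2-fold. All 16 higher members stayed above 0 in every alternative that gave them a value. Of 185 single values, 16 shifted by more than the distance from the middle of the gene's counting limits to either end. PROC, without such limits, was judged by limits on its MILIP siRNA reads. Among the shifted values was C5, from -0.21 to 0.01 with the GC trend removed. A smaller shift could still leave the limits: FGA stood at 1.12 with a pseudocount of 5, under its lower limit of 1.16. The other scalings moved ratios by 0.03 and 0.06 on the log2 scale. Below 20 reads nothing is listed, so absence cannot be read from 0.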

Other observations

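Genes of hepatocyte metabolism outside the plasma proteins were read in the same way. Of 31 genes, mostly hepatocyte enzymes and receptors, 9 carry no value, 12 were listed at 0 in both libraries and 9 passed the filter. RBM47, named below, is neither an enzyme nor a receptor. Of these 9, 4 were at least 1.5-fold higher and none lower, beside 11.1% and 13.8% of all genes. Their median log2 ratio was 0.48. CES1, a liver carboxylesterase, stood at 19.5 in the control and 46.0 after MILIP siRNA, from 389 and 914 reads, a log2 ratio of 1.2 (limits 1.07 to 1.41). RBM47, an RNA-binding protein that, like A1CF, works with the apolipoprotein B mRNA editing enzyme, had 76.2 and 121, a log2 ratio of 0.66 (limits 0.57 to 0.76). SLCO1B1, a bile acid and drug transporter, was listed at 0 and at 2.16, at least 2.16-fold higher. It passed the filter through the MILIP siRNA library alone, so the filter fixed its call as higher. ASGR1, the asialoglycoprotein receptor chain, stood at 1.35 and 3.22. CPS1, the first enzyme of the urea cycle, stood at 104 and 127, within 1.5-fold, and ARG1 and PCK1 were listed at 0 in both libraries. CES2, a carboxylesterase of gut and liver, had 50.5 and 70.8 and was within 1.5-fold. Among enzymes that mark mature hepatocytes, CYP3A4, CYP2E1 and TAT, were listed at 0 in both libraries.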
